A study of Mus musculus with 6 samples.

Results

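The ATF4 and CHOP stress regulators examined here are 10 mouse genes, chosen by symbol: Atf4, Atf5, Atf3, Ddit3, Ddit4, Trib3, Chac1, Asns, Sesn2 and Nupr1. All 10 were found by their NCBI gene identifiers among the 17254 genes listed in any of the 6 libraries, and all 10 passed the filter used for testing, a mean FPKM (fragments per kilobase of transcript, scaled to the library total) of at least 1, which 11717 genes passed. Their expected counts, the estimated number of reads per gene, were whole numbers in all 6 libraries.

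In the integrated stress response, kinases that sense amino acid shortage, unfolded protein in the endoplasmic reticulum, heme deficiency or double-stranded RNA phosphorylate the initiation factor eIF2, which slows general translation and favours translation of the Atf4 mRNA. ATF4 protein, a basic leucine zipper transcription factor, then pairs with C/EBP proteins on composite C/EBP-ATF sites and switches on amino acid synthesis, amino acid uptake, tRNA charging and further regulators, among them Ddit3, which encodes CHOP, and Trib3, which restrains both. Because much of this control acts on translation and protein stability, mRNA levels report only part of it.

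The libraries came from NSPCs (neural stem and progenitor cells) kept in N2 medium with EGF and bFGF for 48 h, either without treatment (control), with paraquat (PQ), a redox-cycling herbicide that produces superoxide, or with N-acetylcysteine (NAC), a thiol antioxidant. Each group had 2 libraries, and the comparison asks how oxidant and antioxidant exposure shift the transcriptome. A dose, 5 µM PQ, is given in the labels of control 1 and PQ 1 only, and the study's methods give 5 µM PQ and 5 mM NAC for RNA sequencing. As a model, the culture is limited in that it is immortalized, derived from neonates, null for Ink4a/Arf and, by the study's methods, a mixture of quiescent and active stem cells with neuronal and oligodendroglial precursors. The genotype ("Ink/Ark knockout") and strain (C57BL/6) are labelled on control 1 and PQ 1 only. Those 2 libraries carry an Illumina protocol in their labels, whereas control 2, PQ 2, NAC 1 and NAC 2 carry BGISEQ-500. The study's methods name only an Illumina kit and sequencer, so the split by protocol rests on the labels alone. The labels pair no libraries, and the numbers used here only name them. Totals ranged from 9680436 expected counts in PQ 2 to 10698241 in NAC 1. Values below are CPM, counts scaled to the library total with TMM factors, unless FPKM is named, and a gene is called at an adjusted p under 0.05 in edgeR's quasi-likelihood test over the 11717 genes. The p-values measure the spread between libraries, which may be technical, since the labels do not say that the 2 libraries of a group came from separate cultures.

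The labelled cell type was checked against its markers. Of 10 neural stem or progenitor markers, Vim was the most abundant at a mean of 2073 FPKM, Nes and Sox2 had means of 94.1 and 134 FPKM, and Hes5 had at most 3 counts in every library. Cdkn2a, the gene of the Ink4a/Arf locus, had 14.3 and 16.4 CPM in control, 11.5 and 13.6 in PQ and 12.1 and 13.0 in NAC. A value per gene does not show which exons those reads cover, so it does not test the deletion.

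The control libraries differed from each other in these genes. Control 1 lay above control 2 for 9 of the 10, all but Ddit4, with a median difference of 0.74 in log2 CPM against 0.00 over all genes tested. At least 0.5 in log2 CPM separated the control libraries for 9 of the 10 genes and for 6.09% of all genes tested, and at least 1 for 4 of the 10 (Atf3, Ddit3, Trib3 and Nupr1) and for 0.743% of all genes. The PQ libraries, which also differ in labelled protocol, had a median difference of 0.03 in these genes, and none of the 10 was as far apart as 0.5. The NAC libraries, both labelled BGISEQ-500, had a median difference of -0.15. What set the control libraries apart was not tested.

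**Figure D1:**
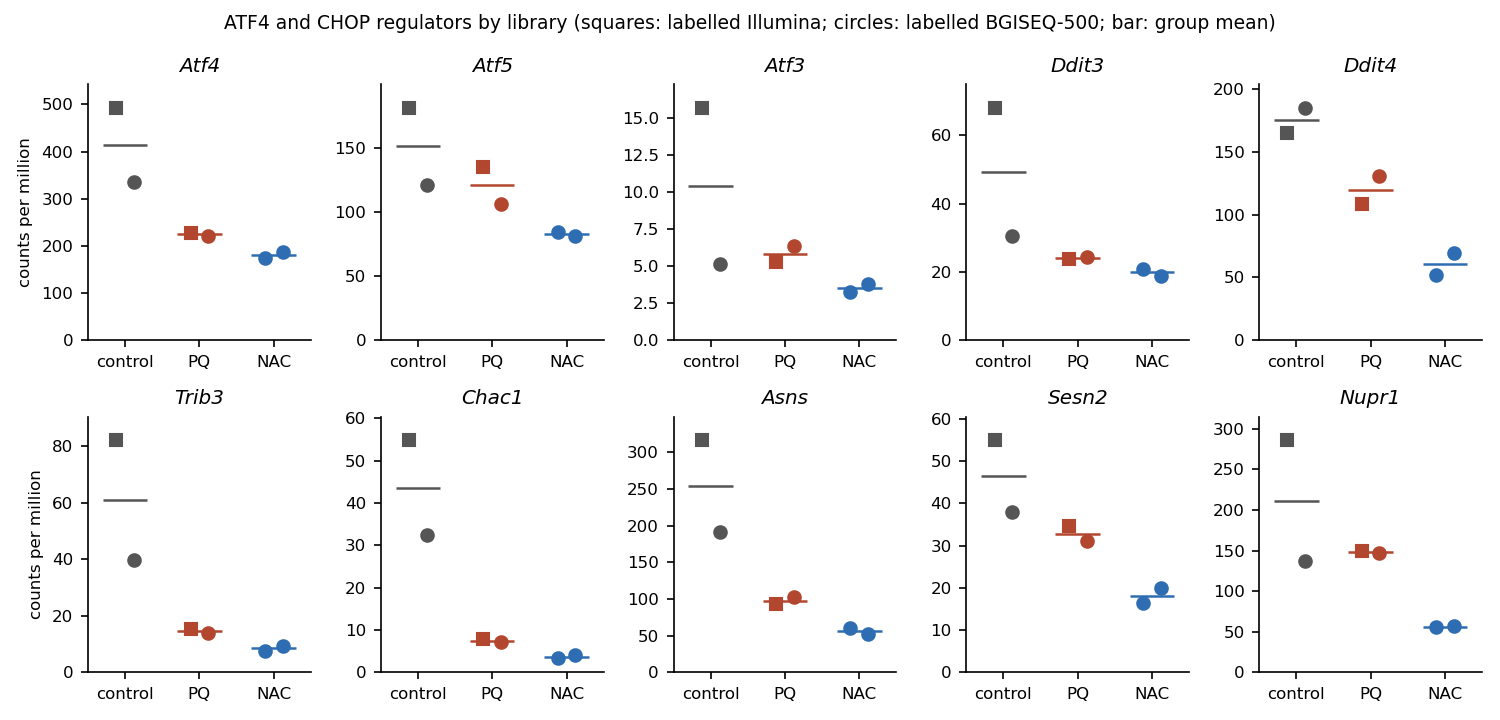
CPM (y axis, from 0) of the 10 ATF4 and CHOP regulators in each library, by group; squares are libraries labelled Illumina, circles those labelled BGISEQ-500, and bars are group means of 2 libraries. Control 1 is the highest library for every gene except Ddit4, and the NAC libraries are the lowest for all 10.

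Promoter sequences are shown because composite C/EBP-ATF sites are the known contact of ATF4 on DNA. RefSeq promoter windows (assembly GRCm38.p6) matched all 10 genes, in 11 windows, since Atf5 has a pair of starts, and the 250 bases before each start were searched on both strands. The core of the C/EBP-ATF response element, TGATGNAA, was present for 4 of the 10 genes (Atf3, Chac1, Asns and Nupr1), in 4 of 11 windows. It was in 3.45% of all 32851 windows of that length and in 1.89% of the 11934 windows of the genes tested. The palindromic cAMP response element TGACGTCA was in none of the 11 windows, in 1.55% of all and in 2.71% of those of the genes tested. CCAAT was present for 6 of the 10 genes, in 33.8% of all windows and in 35.8% of those of the genes tested. No match of one motif overlapped another. The windows holding TGATGNAA are shown 5′ to 3′ on the gene strand with the match in capitals; for Nupr1, whose window another annotated gene reaches into, only the match with 10 bases on each side is given. A match read as TTGCATCA lies on the opposite strand.
Asns: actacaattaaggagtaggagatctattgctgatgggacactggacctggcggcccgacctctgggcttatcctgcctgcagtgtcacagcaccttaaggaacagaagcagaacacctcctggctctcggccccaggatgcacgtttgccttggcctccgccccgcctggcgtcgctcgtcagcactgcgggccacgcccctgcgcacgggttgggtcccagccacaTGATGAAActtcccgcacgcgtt
Chac1: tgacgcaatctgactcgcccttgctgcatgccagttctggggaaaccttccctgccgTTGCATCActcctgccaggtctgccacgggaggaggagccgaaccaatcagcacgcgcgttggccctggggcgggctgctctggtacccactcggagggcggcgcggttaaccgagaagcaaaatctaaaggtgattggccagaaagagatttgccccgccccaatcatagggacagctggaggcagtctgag
Atf3: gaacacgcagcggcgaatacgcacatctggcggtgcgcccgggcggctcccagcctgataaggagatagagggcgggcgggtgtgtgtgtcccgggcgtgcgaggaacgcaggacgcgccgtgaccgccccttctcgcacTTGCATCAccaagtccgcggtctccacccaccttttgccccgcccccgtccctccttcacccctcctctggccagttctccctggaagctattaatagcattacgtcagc
Nupr1: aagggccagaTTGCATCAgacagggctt
The Asns window is chr6:7693210-7693459 on the minus strand, with its match from -23 to -16 relative to the start. The Chac1 window is chr2:119350992-119351241 on the plus strand, with its match from -193 to -186. The Atf3 window is chr1:191183334-191183583 on the minus strand and the Nupr1 stretch chr7:126625563-126625590 on the minus strand, and both matches run from -110 to -103. The matches describe these letters only, and a window without one says nothing about binding elsewhere in the gene.

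**Figure D2:**
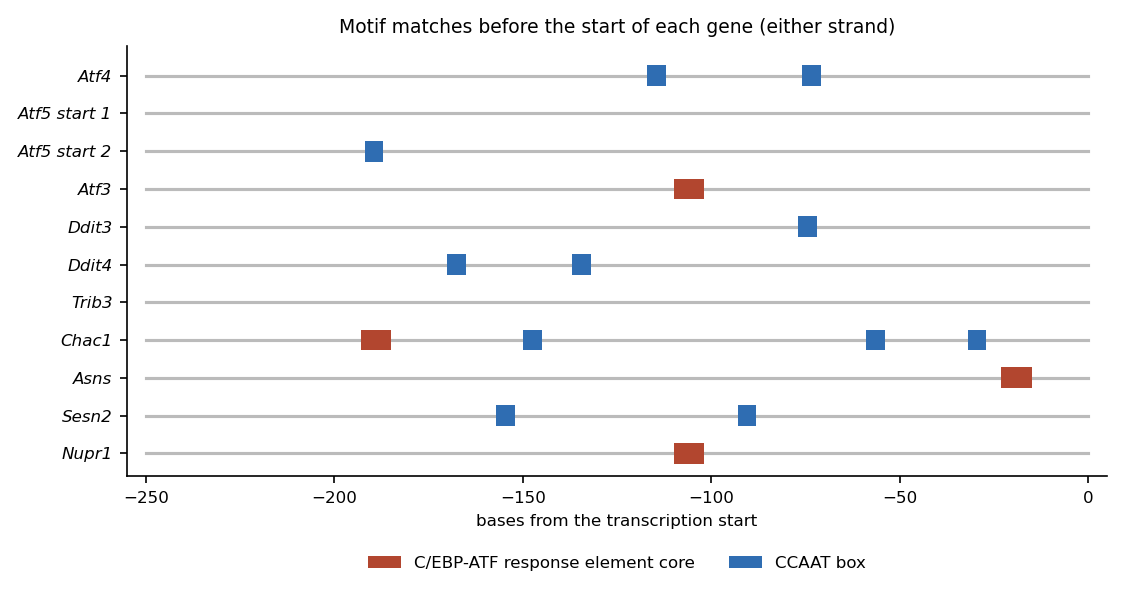
Positions of motif matches in the 250 bases before the transcription start (x axis, bases from the start) of each gene, on either strand; red boxes are TGATGNAA and blue boxes CCAAT, and Atf5 has a line for each of its starts. The red matches are at Atf3, Chac1, Asns and Nupr1, and Chac1 also holds 3 CCAAT matches.

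All 10 genes had lower means with NAC and with PQ than without treatment, though not all of the PQ differences passed the test. In PQ against control, 7 of the 10 were called lower (Atf4, Ddit3, Ddit4, Trib3, Chac1, Asns and Sesn2), against 9.45% of all genes tested. The same 7 had both PQ libraries below both control libraries, which 28.7% of all genes did. In NAC against control, 10 of 10 were called lower, against 9.64% of all genes, and in 10 of 10 the groups did not overlap, against 28.2%. The median log2 fold change of the 10 genes was -0.86 in PQ and -1.55 in NAC, both against the same control libraries, while the median over all genes tested was 0.00 in each. In 7 of 10 the libraries followed the order control above PQ above NAC with no overlap between groups, an order that 3.25% of all genes tested had. In bulk RNA, fewer cells that express a gene and less mRNA per cell cannot be told apart.

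The transcription factors come first. Atf4 had 493 and 335 CPM in control, 228 and 222 in PQ and 175 and 188 in NAC. The 3 groups did not overlap, and the control libraries were furthest apart. Its log2 fold change was -0.88 in PQ (standard error 0.13, adjusted p = 0.00013) and -1.19 in NAC (standard error 0.13, adjusted p = 3.1e-06). Without control 1 the PQ value was -0.58, still called (adjusted p = 0.00028, within a range from 6.8e-17 to 0.0092 over 14 alternatives).

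Ddit3 encodes CHOP, a C/EBP family protein that dimerizes with its relatives and promotes apoptosis under lasting stress. It had 68.1 and 30.4 CPM in control, 23.8 and 24.4 in PQ and 20.8 and 18.9 in NAC. Control 1 stood far above the other 5 libraries, which spanned 18.9 to 30.4. The log2 fold change was -1.03 in PQ (standard error 0.23, adjusted p = 0.0043) and -1.31 in NAC (standard error 0.24, adjusted p = 0.00058). Without control 1 these were -0.34, no longer called (adjusted p = 0.16, within 1.9e-12 to 0.38 over the alternatives), and -0.61, still called (adjusted p = 0.0068, within 1.8e-19 to 0.039). With DESeq2 (-1.03) and with limma on FPKM (-0.87 and -0.89) the PQ call was lost at values near the main one. It was also lost in the BGISEQ-500 libraries alone, where the value was -0.31. Ddit3 overlaps Mars1 and Mbd6 in the annotation, and how reads in the shared stretches were assigned is not stated, so its counts are uncertain to that extent.

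Atf3, an immediate stress factor of the same leucine zipper class that several pathways induce, was the least abundant of the 10. It had 15.7 and 5.15 CPM in control (151 and 51 expected counts), 5.25 and 6.37 in PQ and 3.25 and 3.77 in NAC. Control 2 lay below both PQ libraries, so control and PQ overlapped. The log2 fold change in PQ was -0.84 (standard error 0.34, adjusted p = 0.094); it turned to 0.17 without control 1 (adjusted p = 0.77) and was -1.44 without control 2 (adjusted p = 4.4e-05), the ends of its range over the alternatives being 4.4e-05 and 0.77. It was also called without the filter (adjusted p = 0.00074). In NAC it was -1.57 (standard error 0.37, adjusted p = 0.0051), and -0.56 and not called without control 1 (adjusted p = 0.27, within 1.4e-10 to 0.29). DESeq2, limma on FPKM and the BGISEQ-500 libraries alone did not call it either.

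Atf5, an ATF4 relative that is itself controlled through upstream reading frames in its mRNA and that is known for holding neural progenitors in a proliferating state, had 181 and 121 CPM in control, 135 and 106 in PQ and 84.1 and 81.0 in NAC. PQ 1 lay between the control libraries, and both NAC libraries lay below all others. Its log2 fold change in PQ was -0.33 (standard error 0.15, adjusted p = 0.13), with -0.01 without control 1. It was called without control 2 (-0.59, adjusted p = 0.00067), with the labelled protocol as covariate (-0.31, adjusted p = 0.045) and without the filter (adjusted p = 0.015), within 0.00067 to 0.98 over the alternatives. In NAC it was -0.87 (standard error 0.15, adjusted p = 0.00031), and -0.55 without control 1 (adjusted p = 0.0017, within 2.7e-14 to 0.019). Atf5 overlaps Nup62 and Il4i1b in the annotation, with the same uncertainty as for Ddit3.

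Nupr1 encodes a small, largely disordered nuclear protein that acts with transcription complexes under stress. It had 286 and 137 CPM in control, 150 and 147 in PQ and 55.6 and 56.7 in NAC. Both PQ libraries lay between the control libraries, and NAC was far below every other library. The log2 fold change was -0.51 in PQ (standard error 0.20, adjusted p = 0.081) and -1.91 in NAC (standard error 0.21, adjusted p = 3.1e-06). The PQ value was 0.12 without control 1 (adjusted p = 0.54) and it was called without control 2 (-0.95, adjusted p = 8.7e-08) and without the filter (adjusted p = 1.9e-05), within 8.7e-08 to 0.74 over the alternatives. Without control 1 the NAC value was -1.29 and still called. Another annotated gene, absent from the files, overlaps Nupr1.

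Of the factors that feed back on stress signalling, Trib3, a pseudokinase that binds ATF4, CHOP and AKT, had 82.3 and 39.9 CPM in control, 15.5 and 13.8 in PQ and 7.52 and 9.52 in NAC. The 3 groups did not overlap, and control 1 had the highest level. Trib3 fell to 24.0% of control with PQ (log2 fold change -2.06, standard error 0.24, adjusted p = 9.2e-06) and to 13.9% with NAC (-2.84, standard error 0.25, adjusted p = 3.1e-07). Without control 1 these were -1.45 and -2.23, and both calls stood.

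Ddit4 and Sesn2 encode inhibitors of mTORC1, the kinase complex that drives growth; Ddit4 (REDD1) acts through TSC2 and is also induced by hypoxia and glucocorticoids, and Sesn2 senses leucine and is a p53 target as well. Ddit4 had 165 and 185 CPM in control, 108 and 131 in PQ and 51.9 and 69.5 in NAC. The 3 groups did not overlap, and the control libraries differed little. Its log2 fold change was -0.55 in PQ (standard error 0.12, adjusted p = 0.004) and -1.53 in NAC (standard error 0.13, adjusted p = 1.7e-07). Without PQ 1 the PQ value was -0.42 and not called (adjusted p = 0.10, within 3.7e-06 to 0.10 over the alternatives).
Sesn2 had 55.0 and 38.0 CPM in control, 34.7 and 31.0 in PQ and 16.4 and 19.9 in NAC. Control 2 and PQ 1 were close, and NAC was lower than both other groups. The log2 fold change was -0.50 in PQ (standard error 0.15, adjusted p = 0.028) and -1.35 in NAC (standard error 0.16, adjusted p = 7.9e-06). With DESeq2 the Sesn2 value in PQ was -0.50, and with limma on FPKM it was -0.42 and -0.45. The PQ call stood in 7 of 14 alternatives. It was lost without control 1 (-0.21, adjusted p = 0.41), without PQ 1 (-0.58, adjusted p = 0.079) and without PQ 2 (-0.42, adjusted p = 0.16), with DESeq2 (adjusted p = 0.056), with limma on FPKM (adjusted p = 0.12) and in the BGISEQ-500 libraries alone (-0.29, adjusted p = 0.40), within 0.00035 to 0.41 over the alternatives.

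Of the metabolic effectors, Chac1 had the largest difference from control of the 10 genes. It encodes a gamma-glutamylcyclotransferase that breaks down glutathione, the thiol whose synthesis NAC feeds with cysteine. It had 54.9 and 32.4 CPM in control, 7.83 and 7.21 in PQ and 3.34 and 4.07 in NAC (527 and 321, 82 and 69, and 36 and 41 expected counts). Every control library was above every PQ library, and every PQ library above every NAC library. Chac1 was 5.79-fold lower with PQ (log2 fold change -2.53, standard error 0.21, adjusted p = 5.1e-07) and 11.8-fold lower with NAC (-3.56, standard error 0.24, adjusted p = 1.5e-08). Counted from the most negative fold change, it stood at place 16 of 11717 in PQ and at place 10 in NAC, against the same controls.
Asns, the enzyme that makes asparagine from aspartate and glutamine, had 317 and 192 CPM in control, 92.9 and 103 in PQ and 59.9 and 52.9 in NAC. The groups were again apart, the closest libraries of control and PQ being 192 and 103. It was 2.59-fold lower with PQ (log2 fold change -1.38, standard error 0.16, adjusted p = 1e-05) and 4.51-fold lower with NAC (-2.17, standard error 0.17, adjusted p = 6.6e-08). Without control 1 the values were -0.97 and -1.76, and both remained below the threshold.

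**Figure D3:**
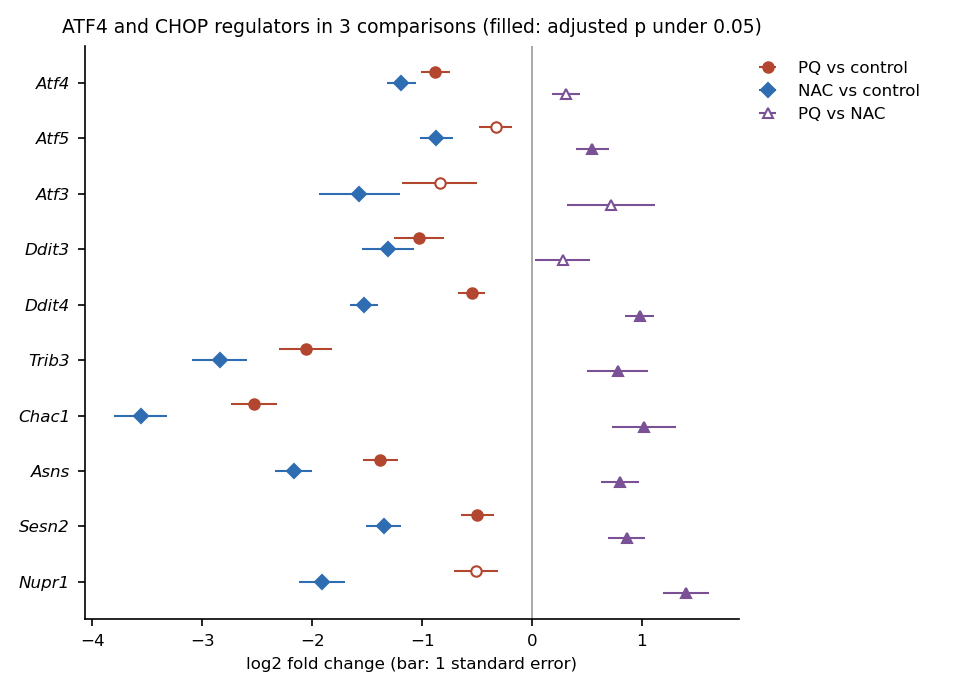
Log2 fold changes (x axis) of the 10 genes in PQ against control (circles), NAC against control (diamonds) and PQ against NAC (triangles), with bars of 1 standard error and filled symbols for an adjusted p under 0.05. NAC values lie between -3.56 for Chac1 and -0.87 for Atf5, and PQ values between -2.53 for Chac1 and -0.33 for Atf5.

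PQ and NAC were also compared directly. The control libraries enter this contrast through the spread shared by the fit, the TMM factors and the filter, not through the means compared. All 10 genes had both PQ libraries above both NAC libraries, which 33.2% of all genes tested did, and 7 of 10 were called higher in PQ, against 16.0% of all genes. Nupr1 had the largest log2 difference, 1.40 (standard error 0.21, adjusted p = 4.8e-05), which was 2.65-fold. Chac1 followed at 1.02 (standard error 0.29, adjusted p = 0.011), and Ddit4 at 0.98 (standard error 0.13, adjusted p = 1.3e-05). These 3 are a regulator, a glutathione-degrading enzyme and an mTORC1 inhibitor. Sesn2 was higher by 0.86 (standard error 0.17, adjusted p = 0.00059), Asns by 0.80 (standard error 0.17, adjusted p = 0.0012), Trib3 by 0.78 (standard error 0.28, adjusted p = 0.043) and Atf5 by 0.55 (standard error 0.15, adjusted p = 0.0087). Atf4 had 0.31 (adjusted p = 0.079), Atf3 0.72 (adjusted p = 0.18) and Ddit3 0.28 (adjusted p = 0.43), so none of these 3 passed, although Atf4 and Atf3 did without the filter, with only the 4 libraries compared and once either control library was left out (adjusted p from 0.007 to 0.011, within 0.007 to 0.39 over the alternatives, and from 0.016 to 0.027, within 0.016 to 0.56). Atf3 was also called in the BGISEQ-500 libraries alone (0.86, adjusted p = 0.033). Leaving out PQ 1 reduced the genes called from 7 to 4, since Trib3 (0.70), Chac1 (0.96, adjusted p = 0.057) and Atf5 (0.36, adjusted p = 0.15) no longer passed, and leaving out any PQ or NAC library ended the call of Trib3 (adjusted p from 0.065 to 0.22, within 6.5e-05 to 0.23 over the alternatives). Without NAC 1 the call of Chac1 ended too (0.89, adjusted p = 0.088, within 5.2e-05 to 0.088), and without NAC 2 that of Atf5 (0.52, adjusted p = 0.058, within 6.3e-06 to 0.15). With the labelled protocol as covariate, 5 of the 10 were called, since Trib3 (0.42, adjusted p = 0.19) and Atf5 (0.30, adjusted p = 0.074) did not pass, and Ddit3 turned to -0.02 (adjusted p = 0.95, within 0.098 to 0.95). DESeq2 and limma on FPKM did not call Trib3 and Atf5 either.

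Because the labelled protocol differs within the control and PQ groups, single libraries were also set against each other within a protocol. In the Illumina pair, PQ 1 lay below control 1 for all 10 genes, with a median log2 CPM difference of -1.31 and a range from -2.78 for Chac1 to -0.43 for Atf5. Among the BGISEQ-500 libraries, PQ 2 lay below control 2 for 8 of the 10, with a median of -0.41, and above it for Atf3 by 0.30 and for Nupr1 by 0.10. The PQ difference was smaller in size there than in the Illumina pair for Chac1 (-2.14 against -2.78), Trib3 (-1.52 against -2.40), Asns (-0.89 against -1.77) and Atf4 (-0.60 against -1.11), and close to it for Ddit4 (-0.50 against -0.60). NAC 1 and NAC 2 lay below control 2 for all 10 genes, with medians of -1.25 and -1.10. No NAC library carries the Illumina label, so NAC cannot be set against control within that protocol. Fitted on the 4 BGISEQ-500 libraries alone, a choice made after the data were seen, 5 of the 10 genes were called lower in PQ, against 4.03% of all genes tested, and 9 in NAC, against 8.34%. Control and PQ have 1 library each in that fit, so its spread comes from the NAC pair alone. The median log2 fold changes were -0.41 and -1.17. Without control 1, whatever the protocol of the rest, the medians were -0.46 and -1.17, and without control 2 they were -1.29 and -1.97.

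**Figure D4:**
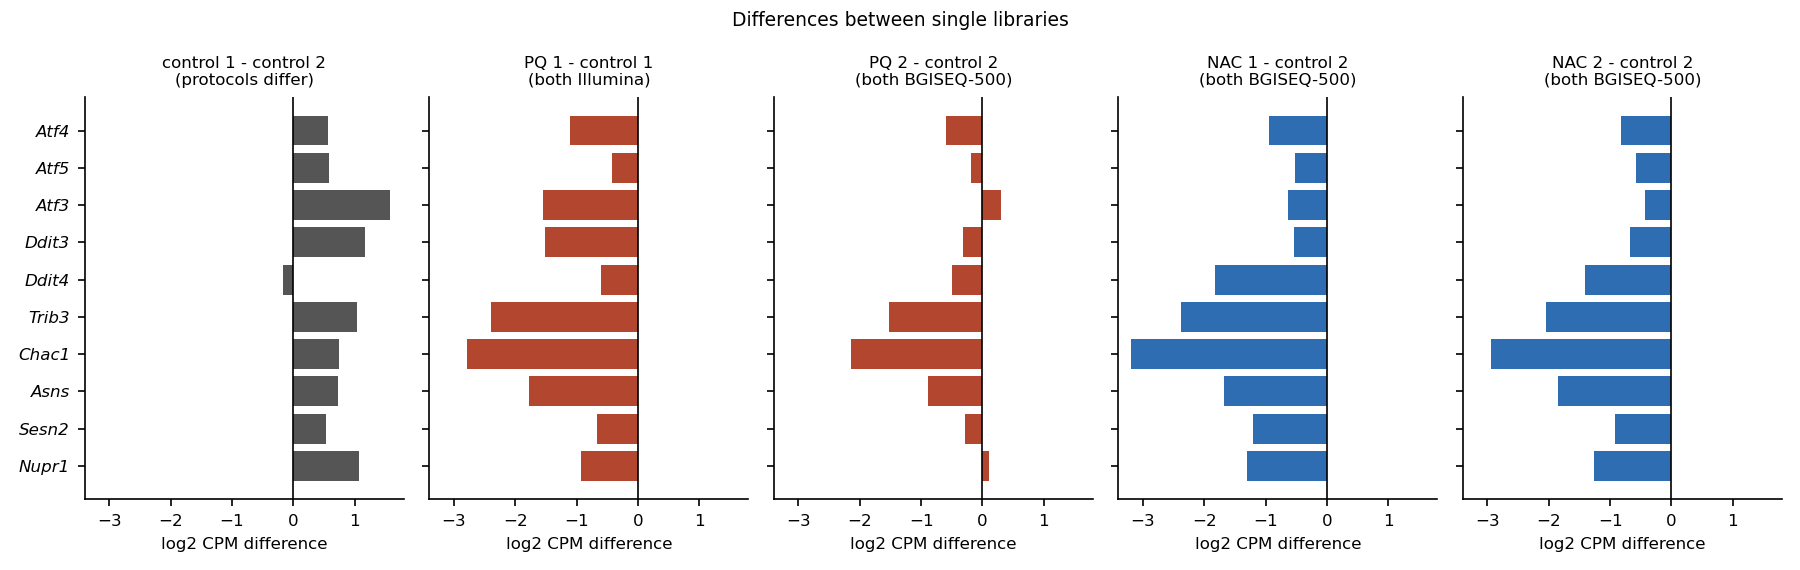
Differences in log2 CPM (x axis) between single libraries for the 10 genes: control 1 minus control 2, then PQ 1 minus control 1, PQ 2 minus control 2, and each NAC library minus control 2, the last 4 within a labelled protocol. The bars for Chac1, Trib3 and Asns point the same way in all 4 treated panels, while those for Atf3 and Nupr1 change sign in PQ 2 minus control 2.

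On the FPKM scale, which allows levels to be compared between genes, Nupr1 and Atf4 were the most abundant in control, at 338 ± 167 and 233 ± 61.2 FPKM (SD, n = 2). Their means did not differ beyond that spread between libraries. Within each control library, though, Nupr1 lay above Atf4 (455.98 against 276.51 FPKM in control 1, 220.44 against 189.92 in control 2). Asns (130 ± 44.3), Ddit4 (103 ± 9.19) and Atf5 (81.3 ± 22.3) followed, each within the spread of its neighbour. Ddit3 had 56.3 ± 30.1 FPKM, Trib3 29.2 ± 14.1, Chac1 27.2 ± 9.68, Sesn2 17.0 ± 4.26 and Atf3 5.17 ± 3.67 (SD, n = 2). Trib3 and Chac1 did not differ beyond their spread, and Atf3 lay below Sesn2 by more than the SD of either. With NAC the order of the means was different: Atf4 (106 ± 6.03) lay above Nupr1 (92.9 ± 2.00), Asns (29.7 ± 2.40) came after Atf5 (45.9 ± 0.884) and, within the spread of the latter, Ddit4 (36.7 ± 7.81), and Trib3 (4.21 ± 0.728) and Chac1 (2.38 ± 0.346) lay below Sesn2 (6.87 ± 0.983). With PQ, Trib3 (7.14 ± 0.679) and Chac1 (4.78 ± 0.339) were likewise below Sesn2 (12.2 ± 1.12), and Nupr1 (243 ± 6.77) stood above Atf4 (129 ± 4.21). Summed over the 10 genes, the level was 1265 and 774 FPKM in control, 624 and 606 in PQ and 340 and 359 in NAC.

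To find genes with a similar course, each gene's log2 CPM was centred on its mean over the 6 libraries and compared with the median course of the 10 genes, which was 1.28 and 0.37 in control, -0.14 and -0.10 in PQ and -0.87 and -0.61 in NAC. The measure was the root mean square difference over the 6 libraries. The nearest gene outside the 10 was Otub2, a deubiquitinating enzyme, at 0.043, with centred values of 1.32 and 0.32 in control, -0.14 and -0.11 in PQ and -0.80 and -0.59 in NAC. Next came Nfil3 (0.149) and Jdp2 (0.167), both leucine zipper factors, and Eif4ebp1 (0.182), the translation repressor 4E-BP1 and a known ATF4 target. They were followed by Serpinf1 (0.184), Cars (0.191), the cysteinyl-tRNA synthetase, Mei4 (0.198), Psph (0.203), the last enzyme of serine synthesis, G0s2 (0.211) and Aldh18a1 (0.212), which starts proline synthesis. Of these nearest 10 genes, 5 (Jdp2, Eif4ebp1, Cars, Psph and Aldh18a1) belong to pathway lists described in this report, as do 0.999% of all genes tested outside the 10, and those lists were chosen with earlier results of these data known. Among the 10 regulators themselves, Atf4 lay nearest the median course (0.206), and Chac1, with the widest range of the 10, lay furthest (0.819). Of the genes outside the 10, 8 lay nearer to it than Atf4, 10 nearer than Ddit3, 11 nearer than Sesn2, 12 nearer than Atf3, 20 nearer than Asns, 40 nearer than Nupr1, 57 nearer than Atf5 or Ddit4, 447 nearer than Trib3 and 9443 nearer than Chac1. The measure is a description over 6 libraries and says nothing about shared control.

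Groups of known ATF4 targets were set beside the 10 genes. Of 14 amino acid and folate pathway synthesis genes, Cth passed the filter only through control, with 4.33 and 1.38 FPKM there and 0.31 to 0.91 in the other libraries, and is not counted. Of the other 13, 10 were called lower in PQ and 11 in NAC, with medians of -0.91 and -1.21, where 9.45% and 9.64% of all genes tested were called lower. Mitochondrial Shmt2, which splits serine into glycine and a folate-bound carbon, had 389 and 292 CPM in control, 124 and 128 in PQ and 124 and 127 in NAC, with PQ and NAC level and control apart (log2 fold changes -1.43 and -1.44, adjusted p = 3.3e-07 and 9.5e-08). Aldh1l2 was lower by -0.55 in PQ (adjusted p = 0.0017), a call not kept in the BGISEQ-500 libraries alone (-0.28, adjusted p = 0.24), and by -1.48 in NAC (adjusted p = 6.6e-08). Of 8 tested amino acid transporters, out of 9 listed, 7 were called lower in PQ and 6 in NAC, with medians of -0.90 and -0.80. Slc7a5, the light chain of the leucine transporter LAT1, had 499 and 283 CPM in control, 88.2 and 95.6 in PQ and 106 and 105 in NAC. Its log2 fold changes were -2.09 (adjusted p = 4.1e-07) and -1.89 (adjusted p = 3.4e-07). All 12 tRNA synthetases known as ATF4 targets were called lower in each, with medians of -0.73 and -0.99. Of 8 other cytosolic synthetases, 2 were called lower in PQ and 4 in NAC, with medians of -0.17 and -0.30. The lists, this split included, were chosen with earlier results of these data known. Without control 1 the NAC calls of Dars (-0.30), Farsb (-0.23) and Vars (-0.29) among the other synthetases were not kept, while that of Rars was (-0.53). In PQ, leaving out control 1 took Sars from -0.45 to -0.18 and Wars from -0.54 to -0.29 among the ATF4 targets. Among the others it took Rars from -0.42 to -0.1, while Vars moved little (-0.67 and -0.63). Control 1 lay above control 2 by a median of 0.38 in the synthesis genes, 0.42 in the transporters, 0.47 in the ATF4-target synthetases and 0.03 in the other synthetases. Within BGISEQ-500, PQ 2 minus control 2 had medians of -0.64, -0.70, -0.41 and 0.00 in the same order. In the BGISEQ-500 libraries alone, the genes called lower in PQ were 7 of the 13 synthesis genes, 6 of the 8 transporters, 5 of the 12 ATF4-target synthetases and 1 of the 8 others, against 4.03% of all genes tested.

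The course of each list over the libraries is drawn beside that of the 10 genes, with the lists of upstream factors, partners and neighbouring stress pathways, whose values follow in the closing observations.

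**Figure D5:**
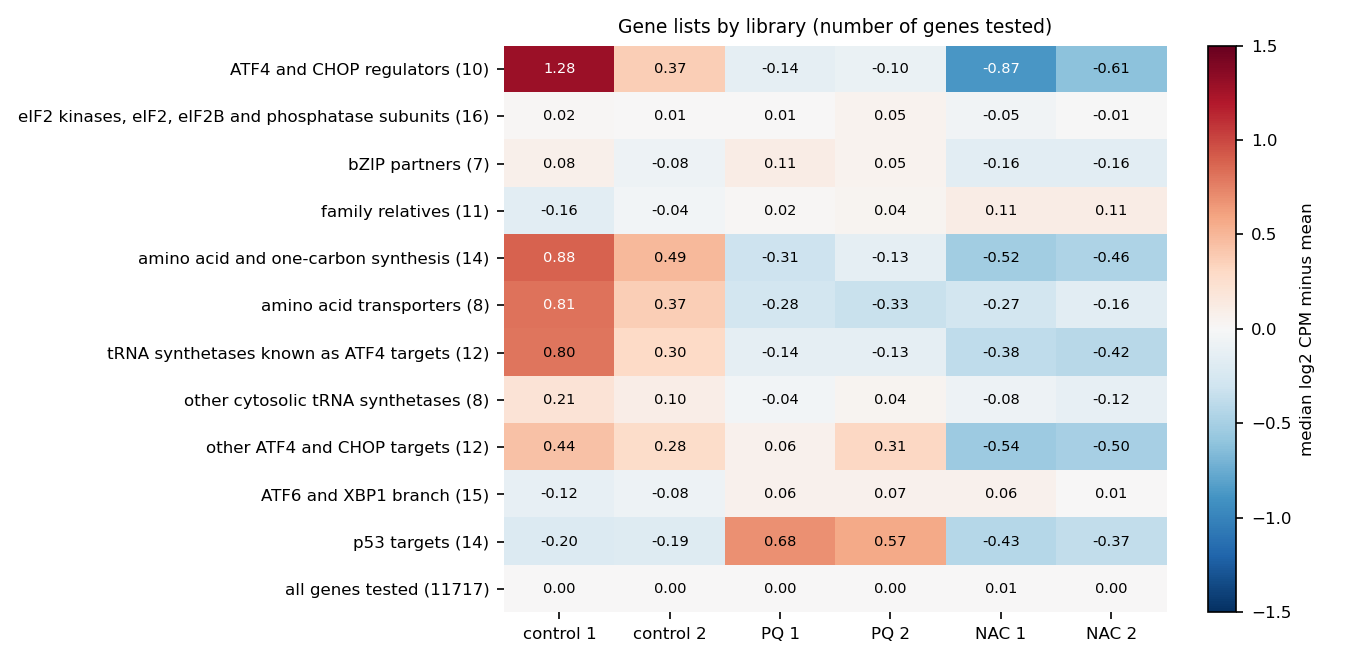
Median over each gene list (rows, with the number of genes tested) of log2 CPM minus the gene's mean over the 6 libraries, in each library (columns); red is above and blue below the mean. The 10 regulators run from 1.28 in control 1 to -0.87 in NAC 1. The transporter and ATF4-target synthetase lists are highest in the control libraries, and the p53 targets in the PQ libraries, at 0.68 and 0.57. The synthesis row, drawn with 14 genes, includes Cth, which passed the filter only through control, so its height in control is not read.

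Markers of other cell states were counted beside these genes. Of 9 tested neural stem or progenitor markers, 1 was called higher and 3 lower in PQ and 1 higher and 3 lower in NAC (over all genes tested, 9.76% higher and 9.45% lower in PQ, and 9.01% and 9.64% in NAC), of which 1 lower in PQ and 1 higher and 1 lower in NAC remained in the BGISEQ-500 libraries alone, and the list summed to 3442 and 3500 FPKM in control, 3757 and 3816 in PQ and 2731 and 2650 in NAC. Of the astrocyte markers, Gfap was higher in NAC by 1.23 (adjusted p = 0.00031), at 4.58 and 5.96 CPM in control and 11 and 13.8 in NAC, and Slc1a2 by 0.65 (adjusted p = 0.0002), with fractional counts throughout. Aldh1l1 was higher in PQ by 1.17 (adjusted p = 0.0035), a call not kept in the BGISEQ-500 libraries alone (0.80, adjusted p = 0.17). In NAC Aldh1l1 went the other way and was not called (-0.49, adjusted p = 0.31). In PQ neither Gfap (-0.05, adjusted p = 0.91) nor Slc1a2 (0.23, adjusted p = 0.16) was called. Aqp4 passed the filter only through NAC, with 2.66 and 2.56 FPKM there and 0.54 to 0.83 in the other libraries, so its call is not counted. This list of 6, led by Slc1a2, summed to 8.14 and 8.47 FPKM in control, 11.25 and 10.74 in PQ and 15.61 and 16.06 in NAC, and Gjb6 had at most 3 counts in every library. Of 8 oligodendrocyte lineage markers, Olig1 and Pdgfra were higher in NAC by 0.41 and 0.40 (adjusted p = 0.017 and 0.011), calls not kept in the BGISEQ-500 libraries alone. That list, led by Olig1 at 429 FPKM, summed to 652 and 753 FPKM in control, 768 and 666 in PQ and 816 and 926 in NAC, Sox10 had at most 1 count in any library, and Mog was not listed. Map2, the 1 neuronal marker of 7 tested, was higher in NAC by 0.77 (adjusted p = 1.1e-05), and that list summed to 38.7 and 36.4 FPKM in control, 34.2 and 35.1 in PQ and 65.8 and 59.8 in NAC, nearly all of it Map2. Tubb3, below the filter, went the other way, at 4.27 and 2.32 CPM in control, 1.24 and 0.835 in PQ and 0.557 and 0.794 in NAC, Neurod1 had at most 3 counts in every library, and Rbfox3 was not listed. P2ry12, the 1 leukocyte marker of 7 tested, was higher in NAC by 1.18 (adjusted p = 0.0033), or by 0.86 and not called without NAC 1 (adjusted p = 0.09), in a list that summed to 2.07 and 1.93 FPKM in control, 3.09 and 3.14 in PQ and 4.59 and 3.64 in NAC and in which Ptprc, Aif1, Csf1r and Tmem119 had at most 3 counts in every library. The endothelial and the mural or fibroblast markers, 5 each, did not pass the filter and summed to at most 0.62 and 2.07 FPKM in any library, and the 3 ependymal markers did not pass the test against control, while Foxj1 was higher in PQ than in NAC by 0.46 (adjusted p = 0.041), a call not kept in the BGISEQ-500 libraries alone. The part of such shifts in the lower levels of the 10 genes was not tested.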

How the data were processed

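For each of the 6 libraries, the files deposited hold, for every gene, its expected count and its FPKM. The submitters' processing notes list TopHat2 2.0.11 and Cufflinks 2.1.1 with mm9 for control 1 and PQ 1, and HISAT2 2.0.4, Bowtie2 2.2.5 and RSEM with mm10 for the other 4 libraries. The study's methods name TopHat and Cufflinks, while all 6 tables have RSEM-type columns, so which pipeline made the values is unsettled. A gene without a row in a library was taken as 0.

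Rounded expected counts were fitted in R 4.3.3 with edgeR 4.0.16 (TMM, glmQLFit, glmQLFTest) over all 6 libraries without a covariate. The filter was a mean FPKM of 1 or more, and p-values were adjusted by Benjamini-Hochberg over the 11717 genes left. Log2 CPM used a prior count of 2. Alternatives were DESeq2 size factors, no filter, the labelled protocol as covariate, only the 4 libraries compared, DESeq2 1.42.0, limma 3.58.1 on log2(FPKM + 1) and log2(FPKM + 0.1), leaving out each library and, added after the data were seen, only the BGISEQ-500 libraries. The scripts were tested on simulated data. The 10 genes and the lists were chosen with earlier results of these data known. Genes named were the 10 regulators, Cdkn2a, in each list up to 3 genes per direction with the lowest adjusted p in PQ and in NAC against control, and the 10 genes nearest the median course. Cth, Eif2b2, Fgf21, Gdf15, Tubb3, Foxj1 and the markers named for their low counts were chosen after their values were seen.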

Additional observations from a re-analysis of the deposited data

How the results depend on the processing

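Over the alternatives, 365 values of single genes kept their direction and side of the threshold, 34 lost the call, 16 gained it and 5 reversed. Leaving out 1 library at a time gave 866 (without PQ 1) to 2206 genes called in PQ against control, where the main fit called 2250; 1286 (without NAC 1) to 2126 in NAC against control, where it called 2186, with 1427 without NAC 2; and 2343 (without PQ 1) to 4207 in PQ against NAC, where it called 3708, with 2407 without NAC 1. The BGISEQ-500 libraries alone, chosen after seeing the data, gave 993 in PQ against control. These fits hold fewer libraries. The regulators called in PQ against NAC ranged from 4 without PQ 1 to 9 without either control, and their median moved from 0.79 to 0.54 with the protocol as covariate.

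The values that reversed were those of Atf3 in PQ against control, which ranged from -1.44 without control 2 to 0.17 without control 1 and was 0.31 in the BGISEQ-500 libraries, and of Nupr1, from -0.95 to 0.12 and 0.11 in the same order. Ddit3 in PQ against NAC was -0.02 with the protocol as covariate. The cause was not tested. With 2 libraries a group, the fits rest on a spread shared over all genes.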

Other observations

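Counts for the pathway's other genes are read against all genes tested, of which 9.76% were called higher and 9.45% lower in PQ, and 9.01% and 9.64% in NAC. Of 16 genes for eIF2 kinases, eIF2, eIF2B and eIF2 phosphatase subunits, 4 were called higher and 2 lower in PQ, and 2 higher and 2 lower in NAC, with median log2 fold changes of 0.04 and -0.10. Apart from the 4 higher in PQ, those counts are near the shares over all genes. Of those 4, Eif2ak1 and Eif2b2 lost the call without PQ 1, at 0.44 and 0.22 against 0.39 and 0.32 in the main fit. Impact, an inhibitor of the amino acid sensing kinase GCN2, was higher in both (0.61, adjusted p = 0.00056, and 0.70, adjusted p = 9e-05). Eif2ak1, the heme-regulated kinase, was higher by 0.39 (adjusted p = 0.016) and 0.43 (adjusted p = 0.0076). Eif2ak2, the double-stranded RNA sensor PKR, was higher in PQ by 0.56 (adjusted p = 0.00058), with fractional counts in all 6 libraries. Eif2s2, the beta subunit of eIF2, was lower by -0.49 (adjusted p = 0.018) and -0.82 (adjusted p = 0.0003). It had 552 CPM in control 1 against 362 in control 2, and the PQ call was not kept in the BGISEQ-500 libraries alone (-0.08, adjusted p = 0.82).

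Of 7 leucine zipper partners, 2 were called higher and 2 lower in each comparison with control. Cebpg, the C/EBP protein that heterodimerizes with ATF4, was lower in PQ (-0.92, adjusted p = 0.00035) and NAC (-0.68, adjusted p = 0.0032), with fractional counts throughout, and so was Jdp2, a repressor of AP-1 and ATF sites (-0.86, adjusted p = 0.0025, and -1.33, adjusted p = 4.5e-05). Cebpd was higher in both (0.38, adjusted p = 0.011, and 0.47, adjusted p = 0.0023). Of 11 tested relatives of the 10 genes, out of 12 listed, 2 were called higher in PQ, and 2 higher and 1 lower in NAC, the 1 lower being near the share over all genes. Ddit4l, the paralog of Ddit4, with fractional counts throughout, was higher in PQ by 0.65 (adjusted p = 0.00023), the opposite sign to Ddit4, and Trib1 was higher by 0.54 (adjusted p = 0.00088), the opposite sign to Trib3. Chac2, the constitutive relative of Chac1, was lower in NAC by -0.70 (adjusted p = 0.0045). In the BGISEQ-500 libraries alone, this call (-0.44, adjusted p = 0.10) and both higher calls in NAC were not kept.

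A list of 14 other ATF4 and CHOP targets, of which 12 were tested, was split in PQ, with 3 called higher and 4 lower (median -0.26), and lower in NAC, with 8 called (median -0.90). In the BGISEQ-500 libraries alone, the 4 lower calls in PQ were lost, 1 gene was called higher and the median turned to 0.05. Eif4ebp1 was lower in both (-0.67, adjusted p = 0.0015, and -1.31, adjusted p = 1.6e-06). Tnfrsf10b, the death receptor DR5 and a target of both CHOP and p53, was higher in PQ by 0.64 (adjusted p = 0.0025), as was Bcl2l11, the cell death protein BIM, by 0.51 (adjusted p = 0.015), both with fractional counts in most libraries. Ero1a, a thiol oxidase of the endoplasmic reticulum, was lower in NAC by -1.49 (adjusted p = 9.5e-08). Fgf21 and Gdf15, secreted factors often used as readouts of ATF4, did not pass the filter.

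Neighbouring stress pathways were counted as well. Of 15 genes of the ATF6 and XBP1 branch of the unfolded protein response, 2 were called higher in PQ and 4 in NAC, with medians of 0.08 and 0.15, the PQ count being near the share over all genes. Without NAC 1 the 4 NAC calls were not kept, at log2 fold changes from 0.20 to 0.30. Hspa5, the chaperone BiP, had 655 and 674 CPM in control, 828 and 899 in PQ and 865 and 808 in NAC, higher by 0.38 (adjusted p = 0.0054) and 0.33 (adjusted p = 0.012). Calr, another chaperone of the endoplasmic reticulum, was higher by 0.37 (adjusted p = 0.0065) and 0.32 (adjusted p = 0.017). Of 14 tested p53 targets, out of 15 listed, 13 were called higher in PQ (median 0.82), while in NAC 2 were higher and 6 lower (median -0.34). Eda2r, a receptor of the TNF receptor family, was higher in PQ by 1.31 (adjusted p = 2e-07). Sesn2, a p53 target as well, was lower in the same comparison. Of the calls named in these observations, those of Eif2ak1, Eif2b2, Jdp2, Eif4ebp1, Tnfrsf10b, Bcl2l11, Calr and Sesn2 in PQ and of Cebpg, Hspa5 and Calr in NAC were also not kept in the BGISEQ-500 libraries alone. Cebpd and Hspa5 in PQ and Eif2ak1 in NAC were kept there but lost when single libraries were left out.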
